A study of Mus musculus with 69 samples.

Results

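Polycomb repressive complex 1 (PRC1) was followed here through 10 genes that encode its subunits in mouse embryonic stem cells (ESCs). They are Rnf2, Ring1, Pcgf1, Pcgf2, Pcgf6, Bmi1, Cbx7, Cbx2, Rybp and Kdm2b, taken by symbol from the 16263 genes of the mRNA-seq count table, and all 10 were among the 14061 genes expressed highly enough to be tested. The cells were of the J1 line, derived from a 129S4/SvJae blastocyst, either wild type (WT) or edited at both alleles of both genes of the histone variant H3.3, H3f3a and H3f3b, so that lysine 27 became arginine (H3.3K27R). Each of the mutants, Mut18 and Mut43, was a line from 1 clone. All cells were cultured on feeder cells and passaged without them before harvest. WT, Mut18 and Mut43 had 2 mRNA-seq libraries and 2 ATAC-seq libraries each, labelled as independent replicates.

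PRC1 places ubiquitin on a lysine near the end of histone H2A and compacts chromatin at developmental genes that stem cells keep silent. Every form of the complex holds RNF2 (RING1B) or RING1 (RING1A), the ubiquitin ligases, bound to 1 of the PCGF proteins. Canonical PRC1 pairs PCGF2 (MEL18) or BMI1 (PCGF4) with a CBX protein, whose chromodomain reads trimethylated lysine 27 of H3. Variant PRC1 holds RYBP or YAF2 in place of the CBX protein. In the PCGF1 complex KDM2B brings the enzyme to unmethylated CpG islands, and in the PCGF6 complex MGA, MAX, E2F6 and L3MBTL2 bring it to germline genes.

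The promoters of the genes on which the results turn are shown first, as the 300-base windows that RefSeq gives around a start site on GRCm38.p6, from 250 bases before it to 50 after. They are written on the strand of the gene, and capitals mark each CG dinucleotide, the letters that the zinc finger of KDM2B binds when unmethylated. Kdm2b is shown at an internal start and at an upstream start, because their ATAC-seq peaks differed, and Bmi1 and Pcgf2 because their peaks were missing or weak.
Kdm2b internal start (chr5:122900301-122900600, minus strand): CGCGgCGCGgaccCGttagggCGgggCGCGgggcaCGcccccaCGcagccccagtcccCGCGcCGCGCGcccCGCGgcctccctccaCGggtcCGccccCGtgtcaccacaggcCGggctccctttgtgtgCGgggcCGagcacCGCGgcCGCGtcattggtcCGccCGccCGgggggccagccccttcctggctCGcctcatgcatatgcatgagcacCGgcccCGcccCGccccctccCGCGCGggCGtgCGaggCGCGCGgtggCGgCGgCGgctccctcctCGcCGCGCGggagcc
Kdm2b upstream start (chr5:122989050-122989349, minus strand): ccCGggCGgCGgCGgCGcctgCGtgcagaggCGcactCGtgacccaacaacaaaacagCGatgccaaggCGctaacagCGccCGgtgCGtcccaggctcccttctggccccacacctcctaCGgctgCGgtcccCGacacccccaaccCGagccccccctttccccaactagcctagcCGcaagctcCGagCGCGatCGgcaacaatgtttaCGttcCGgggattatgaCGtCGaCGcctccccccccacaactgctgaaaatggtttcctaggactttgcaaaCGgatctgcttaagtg
Bmi1 (chr2:18676768-18677067, plus strand): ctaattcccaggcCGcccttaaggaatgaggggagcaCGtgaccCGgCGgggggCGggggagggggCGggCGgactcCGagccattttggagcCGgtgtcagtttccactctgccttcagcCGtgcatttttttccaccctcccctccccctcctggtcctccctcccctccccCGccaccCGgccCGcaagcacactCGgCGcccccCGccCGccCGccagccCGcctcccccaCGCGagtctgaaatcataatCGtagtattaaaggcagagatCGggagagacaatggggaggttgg
Pcgf2 (chr11:97699599-97699898, minus strand): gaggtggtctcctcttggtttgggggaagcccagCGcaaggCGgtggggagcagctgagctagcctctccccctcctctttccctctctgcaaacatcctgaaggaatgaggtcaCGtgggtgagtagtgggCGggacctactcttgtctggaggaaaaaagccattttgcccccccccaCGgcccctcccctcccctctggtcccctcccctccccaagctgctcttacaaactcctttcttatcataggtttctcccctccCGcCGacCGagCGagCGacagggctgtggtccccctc
The internal Kdm2b window held 49 CG dinucleotides, a number reached by 1.02% of the 32851 RefSeq promoter windows, whose median was 7. The upstream Kdm2b window printed here held 28, that of Bmi1 23 and that of Pcgf2 10. Kdm2b windows that were not printed held fewer CG dinucleotides, 18 at chr5:122988458-122988757, among the upstream starts, and 47 at the internal start. RefSeq windows were matched for 7 of the 10 genes. Those of Cbx7, Rnf2 and Ring1 held 33, 30 and 37, and that of Pcgf6 held 22. The letters CACGTG, which read the same on both strands and are bound by MAX and its partners, were present in the windows of Bmi1 and Pcgf2 and in 7.15% of all windows. The letters TTCCCGC, an E2F-type sequence searched on both strands, were in none of the 10 windows of these 7 genes and in 4.6% of all windows.

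The 6 mRNA-seq libraries held 14992756 to 15143998 counts, so the depth behind each value was nearly the same. Levels are given below as CPM, the counts scaled to a common library size with TMM factors, and fold changes come from edgeR's quasi-likelihood test over all 14061 genes, with p-values adjusted by the Benjamini-Hochberg method. A gene is called at an adjusted p under 0.05. In the mutants H3f3a had a log2 fold change of -0.23 and H3f3b one of 0.03, and counts per gene do not show the edited codon. The clones differed in H3f3b, which lies on chromosome 11. Its log2 fold change was -0.07 in Mut18 with no call, and 0.19 in Mut43 against Mut18 (edgeR adjusted p = 0.0402). The 8 ESC markers examined were expressed in every library, at a summed level of 2978 to 3140 CPM in WT and 3398 to 3591 CPM in the mutants, and 6 of them rose, Zfp42 most, while Pou5f1 and Utf1 fell. The summed level of 10 markers of feeder fibroblasts was 213.9 to 300.4 CPM in WT and 136.4 to 181.1 CPM in the mutants, 7 of the 9 tested fell, Postn, Col3a1, Dcn and Fbn1 beyond 2-fold, and none was at 0 in every library. The genes of chromosome 11, which carries Pcgf2 and Cbx2, had a median log2 fold change of 0.39 in the mutants (1184 genes), against -0.03 for the genes of the other chromosomes.

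Kdm2b and Bmi1 had the largest differences among the 10 genes in the H3.3K27R clones. Kdm2b fell by 27.3% and Bmi1 fell by 34.4%, and both fell in each clone. Cbx2 and Cbx7, which encode the chromodomain subunits, also fell, by less, and Rybp rose slightly. For Rnf2, Ring1, Pcgf1, Pcgf2 and Pcgf6 no call was made. In all, 1 gene was called higher and 4 were called lower in the 4 mutant libraries than in the 2 WT libraries. Over all tested genes 23.5% were called higher and 24.5% lower, so the number of PRC1 genes called was near that of genes at large. None of the 10 changed beyond 2-fold, which 8.93% of all tested genes did. The median log2 fold change was -0.05 over the 10 genes and -0.0041 over all genes.

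**Figure D1:**
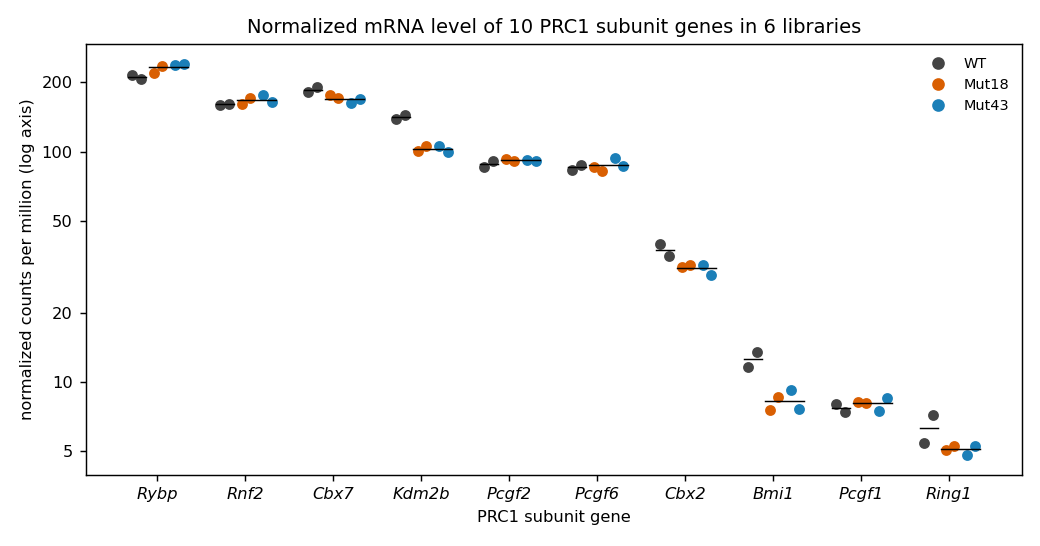
Normalized CPM (log axis) of each of the 10 subunit genes in the 2 WT, 2 Mut18 and 2 Mut43 libraries, with a line at the mean of WT and of the mutants. The points of Kdm2b lie at 138.2 and 144.9 CPM in WT and between 99.8 and 105.7 CPM in the mutants, and those of Bmi1 at 11.5 and 13.5 CPM against 7.51 to 9.19 CPM.

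Of the ligases, Rnf2 was the more abundant. It stood at 160.1 and 161.0 CPM in WT, 161.4 and 171.7 CPM in Mut18, and 176.0 and 164.0 CPM in Mut43. Every mutant library lay above both WT libraries, but the gap to the lowest of them was small. The log2 fold change was 0.07 (95% confidence interval -0.02 to 0.16, edgeR adjusted p = 0.212). Ring1 was among the lowest of the set, with 5.45 and 7.16 CPM in WT, 5.05 and 5.24 CPM in Mut18, and 4.80 and 5.26 CPM in Mut43. These levels rest on 71 to 110 counts per library, and the WT libraries differed from each other by more than the first of them differed from the mutants. Its log2 fold change was -0.31 with an interval of -0.62 to 0.01 (edgeR adjusted p = 0.0984). Without the first WT library it was -0.49 (edgeR adjusted p = 0.0312), and without the second it was -0.092 (edgeR adjusted p = 0.743).

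Of the PCGF genes, which decide the type of complex, Bmi1 was lower in the mutants and the others had no call. Bmi1 had 11.5 and 13.5 CPM in WT, 7.51 and 8.60 CPM in Mut18, and 9.19 and 7.61 CPM in Mut43. The groups did not overlap, and the values of the clones overlapped each other. The log2 fold change was -0.61 (standard error 0.115, edgeR adjusted p = 0.000185), a level 1.52 times higher in WT. Fibroblasts also express Bmi1, and the summed level of the feeder fibroblast markers above was likewise lower in the mutants. The part of that difference in the values of Bmi1, and in those of the other genes that fell, was not tested. In bulk samples fewer cells of a type and less RNA per cell cannot be told apart.

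Pcgf2, the partner of RNF2 in most canonical PRC1 of ESCs, had 85.7 and 91.1 CPM in WT, 92.7 and 90.9 CPM in Mut18, and 92.4 and 90.8 CPM in Mut43. The groups overlapped, and the log2 fold change of 0.05 had an interval of -0.04 to 0.15 (edgeR adjusted p = 0.350). Pcgf6 ranged from 83.4 to 87.3 CPM in WT and from 82.6 to 93.8 CPM in the mutants, with a log2 fold change of 0.03 (interval -0.08 to 0.14, edgeR adjusted p = 0.653). Pcgf1 ranged from 7.42 to 7.97 CPM in WT and from 7.50 to 8.49 CPM in the mutants. At that low level its interval was wider, from -0.18 to 0.31 around 0.07 (edgeR adjusted p = 0.674).

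Of the chromodomain genes, Cbx7, the main CBX gene of ESCs, had 180.9 and 191.2 CPM in WT, 176.1 and 171.5 CPM in Mut18, and 162.1 and 169.8 CPM in Mut43. All mutant libraries lay below WT, by little, and the log2 fold change was -0.13 (standard error 0.043, edgeR adjusted p = 0.0170). That call was lost without the second WT library, at a log2 fold change of -0.08 (edgeR adjusted p = 0.263), and without the first Mut43 library, at -0.10 (edgeR adjusted p = 0.0663). Cbx2, whose product compacts nucleosomes, had 39.6 and 35.2 CPM in WT, 31.4 and 32.3 CPM in Mut18, and 32.0 and 29.0 CPM in Mut43. Its groups did not overlap either, and its log2 fold change was -0.26 (standard error 0.071, edgeR adjusted p = 0.00476). Without the first WT library the value was -0.17 (edgeR adjusted p = 0.131).

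Of the genes of variant PRC1, Rybp, whose product takes the place of the CBX proteins and stimulates the ligase, was the only gene of the 10 called higher. It had 215.7 and 206.8 CPM in WT, 220.5 and 235.2 CPM in Mut18, and 238.7 and 241.3 CPM in Mut43. The lowest mutant library lay only just above the higher WT library. The log2 fold change was 0.15 (standard error 0.044, edgeR adjusted p = 0.00855), and 0.12 without the second WT library (edgeR adjusted p = 0.0917).

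Kdm2b had 138.2 and 144.9 CPM in WT, 100.9 and 105.4 CPM in Mut18, and 105.7 and 99.8 CPM in Mut43. The 4 mutant libraries lay close together and far below WT. The log2 fold change was -0.46 (standard error 0.043, edgeR adjusted p = 2.82e-08), the smallest p among the 10 genes. Over the alternatives of processing and the libraries left out in turn it stayed between -0.49 and -0.42, with an adjusted p of at most 7.55e-07, and that of Bmi1 stayed between -0.72 and -0.48, with an adjusted p of at most 0.0105. Exons of Kdm2b overlap those of Rnf34 over 627 bp and those of the antisense gene A930024E05Rik over 199 bp, both on the opposite strand, and whether the counting used strand is not given in the sources used here. These neighbours were chosen after their values were seen. Rnf34 had a log2 fold change of 0.11 (edgeR adjusted p = 0.0626). A930024E05Rik fell by 0.90 on the log2 scale (edgeR adjusted p = 1.24e-05), from 149 and 183 counts in WT to 73 to 99 counts in the mutants.

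In 7 of the 10 genes the 4 mutant libraries did not overlap the 2 WT libraries, all but Pcgf1, Pcgf2 and Pcgf6. The same held for 59.8% of all tested genes.

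Taken separately, the clones gave like values. In Mut18, 0 of the 10 genes were called higher, where 20.3% of all tested genes were, and 3 were called lower, where 21.0% were. At an unadjusted p under 0.05 Rybp was also higher in Mut18, and DESeq2 called 0 genes higher there. In Mut43, 1 was called higher and 4 lower, against 22.9% and 23.9% of all tested genes. Kdm2b fell by 0.46 on the log2 scale in Mut18 and in Mut43, Bmi1 by 0.64 and 0.58, and Cbx2 by 0.23 and 0.29. The call of Cbx2 in Mut18 was lost with DESeq2, without the first WT library and without either Mut18 library, and in Mut43 without the first WT library or the second Mut43 library. Cbx7 and Rybp were called in Mut43, at -0.16 and 0.18, and had log2 fold changes of -0.10 and 0.11 with no call in Mut18. Rybp was called in Mut18 too with TMM factors from genes outside chromosome 11, with no filter on low counts and without the first Mut18 library, and the call of Cbx7 in Mut43 was lost without the second WT or the first Mut43 library. Both comparisons share the WT libraries. Tested directly, Mut43 and Mut18 differed in none of the 10 genes by edgeR or DESeq2, with 0 at an unadjusted p under 0.05 in edgeR, and in 0.0640% of all tested genes called higher and 0.263% called lower by edgeR. The interval of the difference between clones was -0.16 to 0.03 for Cbx7, -0.02 to 0.17 for Rybp, -0.11 to 0.10 for Kdm2b and -0.23 to 0.35 for Bmi1.

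**Figure D2:**
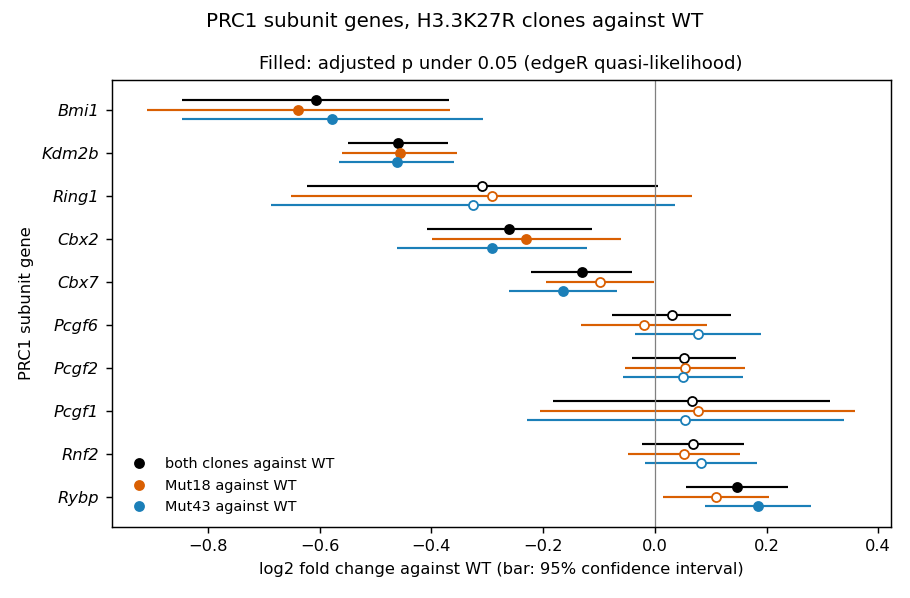
Log2 fold change against WT (x axis, with 95% confidence intervals) of the 10 subunit genes for both clones together, Mut18 and Mut43, with filled points at an adjusted p under 0.05. Bmi1 at -0.61 and Kdm2b at -0.46 lie farthest from 0 and Rybp at 0.15 lies farthest to the right.

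Levels were compared between genes per length, as CPM divided by the length of the merged exons in kilobases (CPKM). In WT, Rybp was highest at 44.6 ± 1.33 CPKM (SD, n = 2), followed by Rnf2 at 38.9 ± 0.150, Cbx7 at 28.7 ± 1.13, Pcgf2 at 25.1 ± 1.08, Pcgf6 at 17.0 ± 0.558 and Kdm2b at 13.02 ± 0.433. Cbx2 at 8.78 ± 0.721, Pcgf1 at 4.67 ± 0.238, Bmi1 at 3.16 ± 0.355 and Ring1 at 1.94 ± 0.374 CPKM were lowest. Over the 6 libraries the ranges of neighbours in this order overlapped for Cbx7 and Pcgf2, for Kdm2b and Cbx2, and for Bmi1 and Ring1. With the longest transcript as length, Rnf2 and Rybp changed places, and so did Pcgf2 and Cbx7. In WT Pcgf6 and Kdm2b then stood at 30.1 and 27.3 CPM per kilobase, near Cbx7 at 30.7. The neighbours with overlapping ranges were then Rnf2 and Rybp, Cbx7 and Pcgf6, Cbx2 and Pcgf1, and Bmi1 and Ring1.

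The composition of each subunit family was taken as the share of its summed CPKM, which does not depend on scaling between libraries. Among the 6 PCGF genes, Pcgf2 held 42.5 ± 0.528% in WT and 43.8 ± 0.774% in the mutants (mean ± SD of 2 and 4 libraries), and Pcgf6 held 28.8 ± 0.0584% and 29.2 ± 0.985%. The shares do depend on the length used. Per kilobase of the longest transcript, Pcgf2 and Pcgf6 stood closer in WT, at 35.6 and 30.1 CPM, and shares were not computed with that length. The share of Bmi1 was 5.03% and 5.65% in the WT libraries and 3.21% to 3.78% in the mutants, without overlap. Rnf2 held 95.3 ± 0.854% of the ligase pair in WT and 96.3 ± 0.250% in the mutants. Of Cbx2, Cbx6, Cbx7 and Cbx8 together, Cbx7 held 67.6 ± 2.08% in WT and 68.5 ± 0.803% in the mutants, and the shares of Cbx2 overlapped, at 19.4% to 22.02% and 18.2% to 20.4%. The clearest difference was in the RYBP pair. Rybp held 84.1% and 84.8% in the WT libraries, 89.4% and 89.6% in those of Mut18, and 90.8% and 91.9% in those of Mut43. Yaf2, the other adaptor, held the rest.

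**Figure D3:**
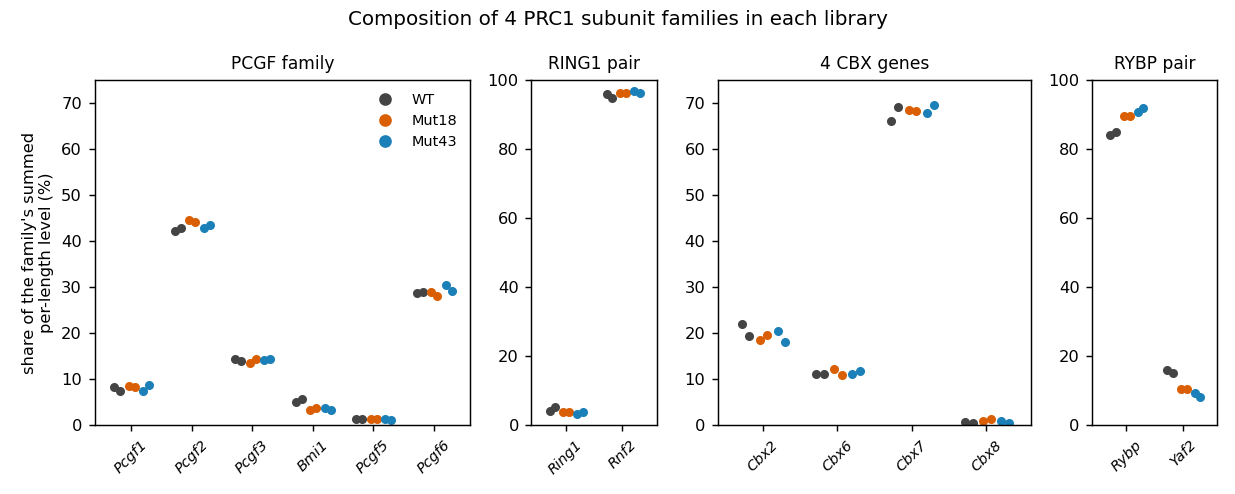
Share (%) of each gene in the summed per-length level of the PCGF genes, the ligase pair, these 4 CBX genes and the RYBP pair, 1 point per library. Rybp lies at 84.1% and 84.8% in WT and from 89.4% to 91.9% in the mutants, and Bmi1 lies lower in all 4 mutant libraries than in WT.

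Ratios between partner genes within a library were compared by an exact two-sided permutation test, for which 2 libraries against 4 allow no p below 0.0667. The test exchanges libraries although those of a clone share a line, so it does not measure the spread between lines. The log2 ratio of Pcgf2 to Bmi1 was 2.89 and 2.75 in WT and 3.33 to 3.63 in the mutants, a difference of 0.66. That of Kdm2b to Pcgf1, which share a complex, was 4.12 and 4.29 in WT and 3.56 to 3.82 in the mutants, a difference of -0.53. The ratio of Ring1 to Rnf2 differed by -0.36, by -0.17 without the second WT library and by -0.56 without the first. In these 3 ratios the groups did not overlap, and each had the smallest exact p of 0.0667 (0.111 after adjustment over 5 ratios). The ratios of Cbx2 to Cbx7 (difference -0.13, exact permutation p = 0.333) and of Pcgf6 to Pcgf1 (difference -0.037, exact permutation p = 0.867) overlapped between groups.

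Pcgf2 and Cbx2 lie on chromosome 11 (97688823 to 97700497 and 119022962 to 119031270 on GRCm38), where 67.1% of the tested genes were called higher in the mutants and 7.09% lower. Neither of these genes was called higher. Scaled to the chromosome 11 genes alone, which moved the median log2 fold change of all genes to -0.38, Pcgf2 turned from 0.05 to -0.33 (standard error 0.045, edgeR adjusted p = 1.48e-06) and Cbx2 went from -0.26 to -0.64 (standard error 0.073, edgeR adjusted p = 1.31e-07). With that scaling 837 of the 14061 tested genes were called higher and 9793 lower, so these p-values do not set Pcgf2 or Cbx2 apart from genes at large. Of the chromosome 11 genes, 18.8% had a log2 fold change at or below that of Pcgf2 in the main fit and 8.87% at or below that of Cbx2. Cbx8, a neighbour of Cbx2, had 0.539 to 1.81 CPM. Its log2 fold change was 0.34 with an interval of -0.46 to 1.13 (edgeR adjusted p = 0.489).

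A further 39 genes encode other parts of PRC1, or enzymes that remove ubiquitin from H2A and their cofactors. Of these 39, 11 were called higher and 7 lower in the mutants and 21 had no call. Over all tested genes 23.5% were called higher and 24.5% lower, so the calls among the 39 were not far from those of genes at large. None of the 39 changed beyond 2-fold, and their median log2 fold change was -0.0026. In the canonical list, Phc2 fell by 0.52 and Phc3 rose by 0.29 on the log2 scale, both encoding polyhomeotic subunits that link complexes to each other. In the variant list, Yaf2 fell by 0.65 (edgeR adjusted p = 3.16e-05), from 16.1 and 14.6 CPM in WT to 8.42 to 10.7 CPM in the mutants. E2f6, which encodes a DNA-binding partner of PCGF6, fell by 0.52, while L3mbtl2 of the same complex, named after its value was seen, rose by 0.36. Mga and Max, the other genes of that complex named above, had means of 307.5 and 96.5 CPM in WT. In the mutants their means were 373.9 and 100.5 CPM. In Mut18 against WT, Mga was called higher, by 0.23 (edgeR adjusted p = 0.000815), and Max had no call (edgeR adjusted p = 0.423). With both clones against WT, Hdac2 and Fbrs fell by 0.17 and 0.20, and Bcor, which links PCGF1 to KDM2B, rose by 0.39. The call of Fbrs was lost with DESeq2, with TMM factors from genes outside chromosome 11, with no filter, with the replicate block and in 5 of the 6 fits that left out a library. Those of Hdac2 and Phc3 were lost without the second WT library. Cbx1, Dcaf7 and Skp1a rose by 0.49, 0.46 and 0.41, and all 3 lie on chromosome 11, where scaling to that chromosome left log2 fold changes of 0.11, 0.08 and 0.03. Of the genes of the deubiquitinases and their cofactors, Asxl2, a cofactor gene, fell by 0.22 and Usp16 rose by 0.17. Usp22, on chromosome 11, rose by 0.37 (-0.01 scaled to that chromosome).

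**Figure D4:**
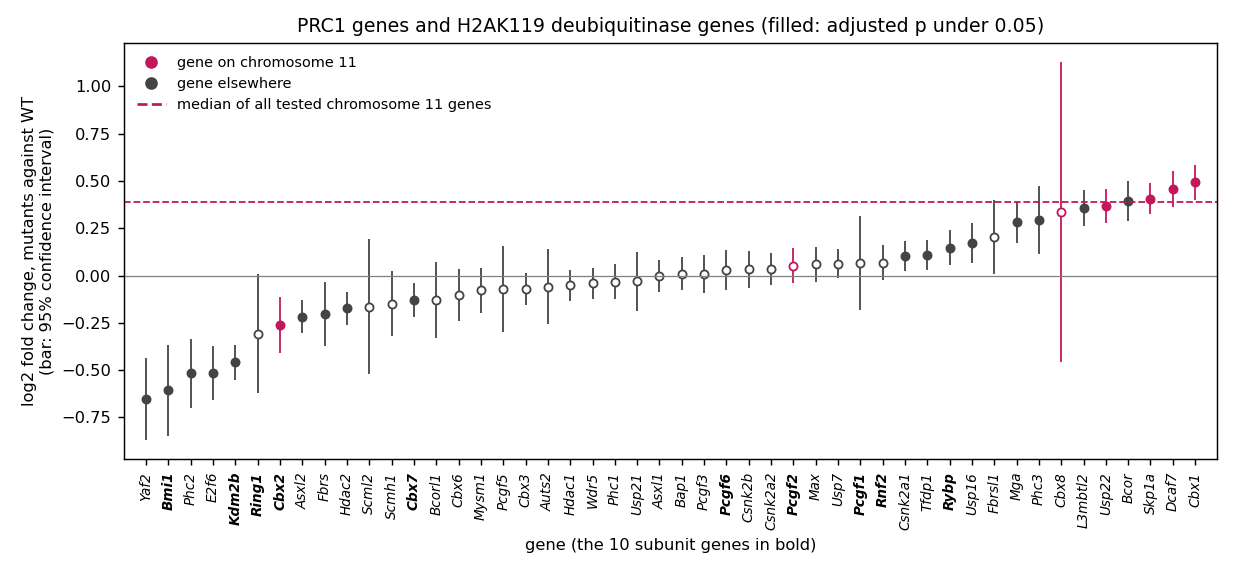
Log2 fold change of the mutants against WT (y axis, with 95% confidence intervals) of the 10 subunit genes, in bold, and further genes. These are of PRC1 and of the deubiquitinases and their cofactors. Genes are ordered by value and coloured by chromosome, with filled points at an adjusted p under 0.05. The dashed line marks the chromosome 11 median of 0.39, near which Cbx1, Dcaf7, Skp1a and Usp22 lie, while Pcgf2 lies at 0.05 and Cbx2 at -0.26.

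Genes known to be held down by PRC1 in ESCs moved both ways. Of 24 Polycomb targets of canonical type listed, 23 were in the count table and 16 were expressed highly enough to be tested. Of these, 4 were called higher and 11 lower, where 23.5% and 24.5% of all tested genes were, with a median log2 fold change of -0.88. T (Brachyury), the mesoderm factor, fell from 16.4 and 16.1 CPM in WT to 1.82 to 3.32 CPM in the mutants (log2 fold change -2.63, edgeR adjusted p = 2.93e-11). Among the others, those that fell beyond 2-fold included Foxa2 (-3.21), Zic1 (-1.44), Hoxd8 (-1.40), Hoxd13 (-1.11) and Sox1 (-1.10), all under 5 CPM in every library, and Foxa2, Zic1 and Hoxd8 rest on at most 7 counts in each mutant library. Gata4, Meis1 and Pax6 rose by 0.50, 0.40 and 0.27. Of 16 germline genes known as targets of the PCGF6 complex, 7 were called higher and 5 lower, beside the same shares over all tested genes, with a median of 0.22. Smc1b, Hormad1, Tex11 and Dazl rose most, by 0.99, 0.95, 0.76 and 0.73, and Taf7l, Tdrkh, Slc25a31 and Sycp3 fell most, by 1.01, 0.71, 0.65 and 0.58. With DESeq2, 20 of these 27 calls over both lists were kept, and 8 genes were called higher and 12 lower. Of the genes named, Gata4, Meis1, Hoxd8, Zic1 and Slc25a31 lost their calls there. Taf7l lost its call without the first WT library, and Pax6 lost its own without the second. Genes that passed the filter only through a group in which they are high had to differ, so these counts describe the tested genes and not the whole lists.

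ATAC-seq, in which a transposase cuts open chromatin, was examined at the start sites of the 10 genes. The authors called peaks library by library and gave each peak its fold enrichment and a -log10 q, which was above 6 throughout, and the number of reads behind them is unknown here. A peak lay within 1000 bp of a start site in all 6 libraries for 8 of the 10 genes (80.0%), and for 87.5% of the 13434 tested genes with a coding start site. The exceptions were Bmi1 and Pcgf2. No library had a peak at the upstream start sites of Bmi1, in the window printed above, and only the first WT library, which has the longest list, had a peak at those downstream, with a fold enrichment of 3.62. At Pcgf2 the peak had a fold enrichment of 2.35 to 2.85 in 5 libraries and was missing in the second WT library.

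At Kdm2b the internal start at 122900355 of chromosome 5, in the CG-rich window printed above, had a peak in 6 of 6 libraries, and its fold enrichment was 8.05 and 10.4 in the WT libraries, 8.86 and 10.4 in those of Mut18, and 9.39 and 10.2 in those of Mut43. The most upstream starts, at 122988533 to 122989823, had a peak in 4 of 6 libraries, with a fold enrichment of 3.22 to 4.59. It was missing in 1 library of each clone. A start between these and the internal one, at 122952506, also had a peak in 4 of 6 libraries, at 3.75 to 4.06. The most downstream start, at 122888580, had a peak in no library. From the internal start a short transcript is made that lacks the demethylase domain and keeps the zinc finger. Counts per gene do not separate the transcripts, so the fall of Kdm2b could not be assigned to a start site. At the most upstream starts of Rnf2 the fold enrichment was 8.53 to 11.04, and at those of Cbx7 8.16 to 10.4. It was 7.05 to 8.31 at Pcgf1, 6.46 to 8.30 at Pcgf6 and 5.45 to 7.17 at Cbx2. At Rybp it was 4.83 to 6.81 and at Ring1 3.82 to 4.06, and each of these 7 genes had a peak there in every library. The downstream start of Rnf2 had no peak. At Cbx7 the second group of starts had 3.45 to 4.61 in every library. The third, where the Cbx7 window counted above lies, had a peak in 3 of 6 libraries, at 2.789 to 3.255. No test was run on these values. Within 10000 bp of the 10 genes, overlapping peaks formed 64 regions, and 33 of them were found in every library. None was found in WT alone in both of its libraries, and none in all 4 libraries of the mutants alone. How often such regions lie near other genes was not computed, so these numbers describe the 10 genes without a comparison.

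**Figure D5:**
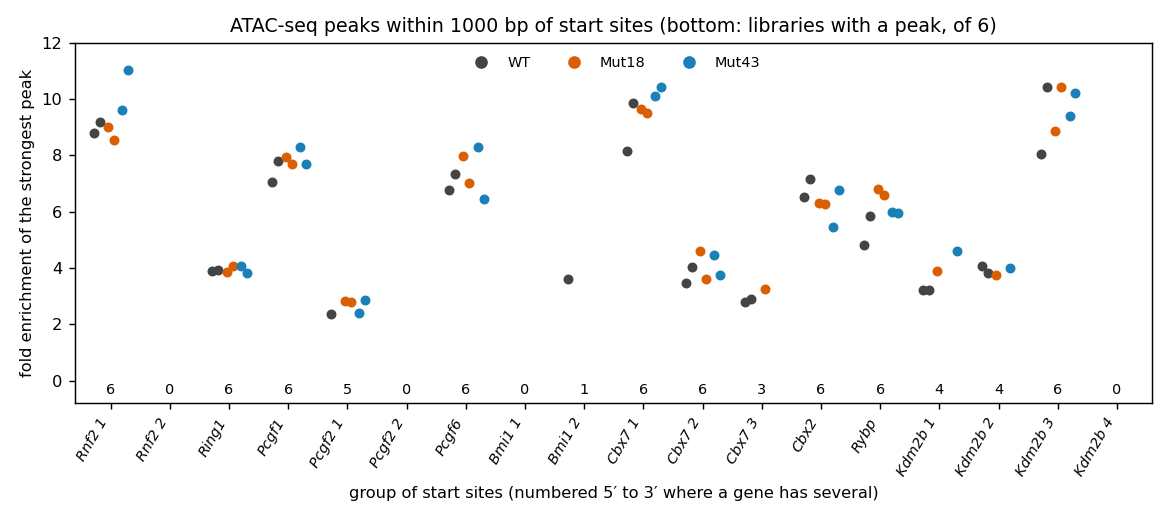
Fold enrichment (y axis) of the strongest ATAC-seq peak within 1000 bp of each group of start sites of the 10 genes, 1 point per library with a peak, and below it the number of libraries with a peak. The internal Kdm2b start, the third of that gene, has a peak in 6 libraries at 8.05 to 10.4, and the Bmi1 starts have none and 1.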

How the data were processed

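Per gene and mRNA-seq library, the authors deposited raw counts of reads, not normalized. Reads were placed on mm10 combined with Drosophila sequences, and the counter, annotation and strand setting are not given in the sources used here. STAR, Bowtie2 2.3.4.2, MACS2 and DESeq2 are among the tools in the submitters' processing notes. For ATAC-seq, the authors deposited 1 list of peaks per library, giving fold enrichment (a ratio), -log10 p and -log10 q values and a display score, the last of which was not used. The numbers of peaks ranged from 63591 to 78539.

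Counts were filtered (minimum count 10, minimum total 15), scaled by TMM and tested by edgeR 4.0.16 in R 4.3.3, WT (n = 2) against both clones (n = 4), with Benjamini-Hochberg adjustment. Clones were compared in a fit with 3 groups. The procedure was tested on simulated counts. Nothing in the labels says that replicates came from separate cultures beyond calling them independent, so p-values measure the spread between these libraries. They do not measure the spread between lines, since the WT libraries share a line and so do those of each clone. Replicates of a line differed by more than counting error. Exon lengths, start sites and overlapping genes came from GENCODE on GRCm38, the build of mm10, where 15644 symbols matched directly and 477 as synonyms, and 142 had no match. Python 3.11.15 with scipy 1.17.1 was used for ratios and peaks.

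All 10 subunit genes are named. Of each other list, the called genes with the largest log2 fold change are named, at most 4 in each direction, with every gene beyond 2-fold and every PRC1 gene on chromosome 11, and some genes under this rule are not reported here. The subunit genes and lists were chosen with earlier results of these data known. Alternatives were DESeq2 1.42.0, other scalings, no filter, a replicate block, another length, other distances and thresholds for peaks, and each library left out.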

Additional observations from a re-analysis of the deposited data

Results flagged for a closer look

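The log2 ratio of Pcgf6 to Pcgf1 in the 4 mutant libraries was 3.64 in the first Mut43 library and 3.35 to 3.39 in the other 3. The gap of that library to its neighbour was 0.842 of the whole range, above the limit of Dixon's test for 4 samples. Of 15 such groups examined, the levels of the 10 genes and 5 ratios in the mutant libraries, this was the only 1 past the limit, and chance alone passes about 1 in 20.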

How the results depend on the processing

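At an adjusted p under 0.05, the calls of Kdm2b and Bmi1 held in every alternative run. Without the second WT library, 3 of the 10 genes were called in place of 5, since Cbx7 and Rybp lost their calls, and with a 2-fold change required 0 were called. Left out in turn, the libraries gave 3 to 5 calls in the comparison of both clones with WT, 2 or 3 in Mut18 and 4 or 5 in Mut43. The log2 fold change of Pcgf2 was -0.33 with factors from chromosome 11 genes, and with those 837 genes of the whole table were called higher and 9793 lower, against 3308 and 3441. That of Pcgf6 ranged from -0.0015 to 0.0707 with libraries left out, and was -0.00025 without the first WT library. The difference in the ratio of Pcgf6 to Pcgf1 was 0.0234 in Mut43 alone, and with libraries left out it ranged from -0.122 to 0.0490, the latter without the second WT library. With the longest transcript as length, 6 of the 10 genes kept their place in the order of levels. Peaks with a -log10 q of at least 20 left 6 genes in place of 8 with a peak in every library. Where 1 WT library was left out, the remaining library was assumed to vary like the others. Why these values moved was not tested. Replicate numbers did not pair the libraries, since deviations of libraries with the same number had correlations of -0.0136 to 0.0252. With the replicate block 5 of the 10 genes were called, as without it, and 16 in place of 18 of the 39 further genes. Among the 10 genes, depth limits Ring1, Pcgf1 and Bmi1 most, all under 15 CPM. Cbx8 and the target genes Foxa2, Zic1, Hoxd8, Taf7l and Slc25a31 rest on fewer counts still.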
